A study of Mus musculus with 6 samples.

Results

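Antiviral interferon-stimulated genes are the 40 genes listed by symbol for this account, from Isg15 and the Ifit, Oas and Mx families to Adar and Helz2, taken as a list of names. All 40 had a row among the 23183 genes of the deposited tables, and all 40 passed the filter on low values. Whole lung of mice on the C57BL/6 background was sequenced in 6 libraries, 3 after saline and 3 after lipopolysaccharide (LPS, the endotoxin of Gram-negative bacteria), each given by intratracheal instillation. The labels state no dose, time after instillation, age or sex. The titles and the design text call all 6 libraries wild type, and the genotype field calls the saline libraries wild type. That field names an Lcn2 knockout for LPS 1 and LPS 2 and an Lcn4 knockout for LPS 3. Lcn2 RNA went against the field for LPS 1 and LPS 2, since its log2 value was 13.29 to 13.82 in the LPS libraries and 8.20 to 11.28 in saline. If the field were right, genotype and treatment could not be told apart in any difference below. Nothing states that the libraries were separate animals, so the errors measure the spread between libraries, which may be technical. The table of LPS 3 stops before the end of the alphabetical gene list, so 7 members (Sp100, Trim21, Trim25, Trim30a, Usp18, Xaf1 and Zbp1) have 2 LPS values and 33 have 3.

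Interferon-stimulated genes are switched on when type I or type III interferons bind their receptors. The receptors' kinases JAK1 and TYK2 phosphorylate STAT proteins, which join IRF9 in a complex that binds the interferon-stimulated response element in gene promoters. LPS reaches this pathway through TLR4 and its adaptor TRIF, which activate TBK1, IRF3 and the production of interferon beta, and some of these genes also respond to IRF3 or to interferon gamma directly. Their products sense viral RNA, stop translation, degrade RNA, modify proteins with ISG15 or ubiquitin, or block virus entry and release.

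Promoter sequences show what many members share at their start sites. RefSeq windows on GRCm38 (the mm10 build) reach from 250 bases before to 50 bases after a start site, and 30 of the 40 members matched one by symbol. The core of the response element, GAAA followed by any 2 bases and GAAA again, was searched on both strands, and overlapping matches were counted. It stood in the windows of 14 of these 30 members (46.7%), against 3.99% of 27025 genes with a window. Letters of a STAT dimer site, TTCNNNGAA, stood in 8 of the 30 (26.7%), against 9.55% of genes, and those of an NF-kB site, GGG followed by any 2 bases and TTTCC, in 0 of the 30, against 1.89%. The 14 members with the response element core had a median difference, LPS minus saline, of 1.93 on the log2 scale, and the 16 without it had 1.46. Of the former 12 rose and of the latter 10. A match in letters is no evidence of binding, and a window without one says nothing of the factor.

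The stretches below belong to the 6 members with the largest differences among those that hold the core, and capitals mark its letters or their reverse complement, TTTC followed by any 2 bases and TTTC. They run 5′ to 3′ on the strand of the gene and end at the base before the start site, except that of Ifitm3, which lies after it. Isg15 is at chr4:156200819-156201068 (minus strand), Ifit1 at chr19:34640639-34640888 (plus strand), Rsad2 at chr12:26456453-26456702 (minus strand), Ifit3 at chr19:34583279-34583528 (plus strand), Oas3 at chr5:120777660-120777909 (minus strand) and Ifitm3 at chr7:141010716-141010742 (minus strand).
Isg15: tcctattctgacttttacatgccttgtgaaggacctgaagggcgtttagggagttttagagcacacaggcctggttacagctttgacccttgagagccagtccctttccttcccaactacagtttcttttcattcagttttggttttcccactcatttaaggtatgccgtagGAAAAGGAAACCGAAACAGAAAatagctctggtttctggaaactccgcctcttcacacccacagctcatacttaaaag
Ifit1: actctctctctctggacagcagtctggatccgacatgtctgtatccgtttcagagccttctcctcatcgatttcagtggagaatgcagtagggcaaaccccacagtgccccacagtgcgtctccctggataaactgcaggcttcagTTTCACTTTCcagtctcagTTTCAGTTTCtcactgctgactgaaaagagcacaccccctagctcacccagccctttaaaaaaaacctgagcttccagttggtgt
Rsad2: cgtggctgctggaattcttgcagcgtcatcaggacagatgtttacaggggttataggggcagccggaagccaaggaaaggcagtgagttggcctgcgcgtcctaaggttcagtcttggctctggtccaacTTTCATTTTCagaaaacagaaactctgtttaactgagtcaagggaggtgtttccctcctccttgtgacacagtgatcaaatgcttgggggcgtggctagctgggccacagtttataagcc
Ifit3: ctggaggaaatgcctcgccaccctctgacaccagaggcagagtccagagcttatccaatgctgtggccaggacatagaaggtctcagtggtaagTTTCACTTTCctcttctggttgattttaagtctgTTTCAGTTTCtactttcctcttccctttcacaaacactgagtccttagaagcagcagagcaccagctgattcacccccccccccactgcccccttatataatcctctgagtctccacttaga
Oas3: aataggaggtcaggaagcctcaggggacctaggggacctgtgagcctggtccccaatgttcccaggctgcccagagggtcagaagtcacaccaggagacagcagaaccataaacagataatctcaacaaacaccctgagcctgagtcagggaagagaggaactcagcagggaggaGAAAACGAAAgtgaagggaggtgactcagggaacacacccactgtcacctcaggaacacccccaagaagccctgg
Ifitm3: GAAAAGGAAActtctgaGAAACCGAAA
In Isg15 3 overlapping matches run together, the farthest beginning 78 bases and the nearest 66 bases before the start. Ifit1 and Ifit3 each hold 2 matches with the same letters, TTTCACTTTC and then TTTCAGTTTC, 104 and 85 bases before the start in Ifit1 and 156 and 122 in Ifit3. Rsad2 and Oas3 each hold 1 match, on opposite strands.

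Most antiviral interferon-stimulated genes had more RNA in the LPS libraries than in the saline libraries. Of the 40 members 31 rose and 0 fell (limma, adjusted p under 0.05), and after scaling all libraries to one total (equal sums) 24 rose and 2, Trim21 and Samd9l, fell. At an unadjusted p under 0.05, 32 were higher and 0 lower. Many genes of the lung changed, so each count reads against the share of all genes under the same setting. Of 13116 tested genes 25.7% were called higher and 24.3% lower as deposited. With equal sums 798 of them were called higher and 8343 lower. No share of all tested genes is given for the unadjusted counts, which therefore cannot be read in this way. At least 2-fold and called were 29 members, against 9.26% of tested genes, and at least 4-fold 15, against 2.28%. All LPS values lay above all saline values in 32 members, against 32.7% of tested genes, and below them in 0, against 30.7%. The median difference of the members was 1.65 and that of all tested genes 0.02, on the log2(value + 1) scale, which understates the change of low genes. In whole lung, more cells of a type and more RNA per cell cannot be told apart. With equal sums the median of all tested genes moved to -0.68 and that of the members to 0.95. This scaling shifts all genes of a library nearly alike. With quantile normalization the members' median stood 1.37 above that of all tested genes, against 1.63 as deposited. Equal sums also lowered the differences of these members by more than 1.5 times without ending the call: Bst2 to 1.05, Ifitm3 to 1.55, Lgals3bp to 0.72, Cmpk2 to 0.68, Ifi35 to 0.70, Isg20 to 0.76, Ifit2 to 1.43, Oas1a to 1.30, Oas2 to 1.06, Oasl2 to 1.35, Rtp4 to 1.44, Usp18 to 1.33 and Xaf1 to 1.28.

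**Figure D1:**
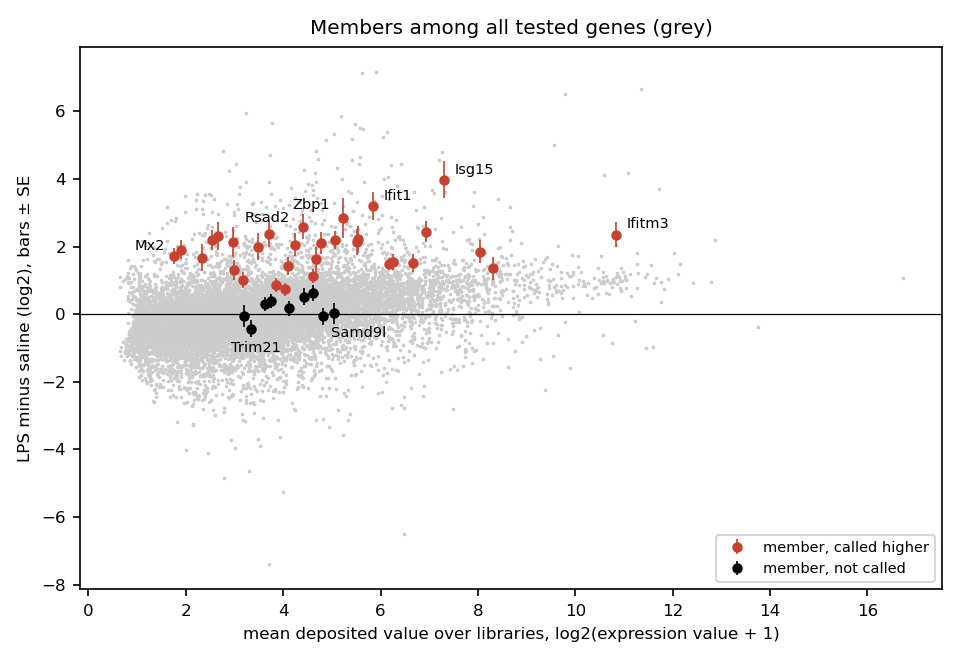
LPS minus saline difference (log2, y axis) against the mean deposited value (log2, x axis) for all tested genes (grey) and for the 40 members, with bars of 1 SE. The 31 members called higher (red) lie between 0.74 and 3.97, and the 9 not called (black) between -0.43 and 0.62.

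All 3 genes of the ISG15 system rose, 2 of them also with equal sums. Isg15, a ubiquitin-like protein that is attached to other proteins, had the largest difference of the members, with values of 3.79, 6.38 and 5.80 in saline 1 to 3 and 9.74, 9.08 and 9.06 in LPS 1 to 3. The difference was 3.97 (SE 0.55; limma adjusted p = 0.000602), or 15.7-fold, and the lowest LPS value stood 2.68 above the highest saline value. Its saline values were themselves spread over 2.59, the widest saline range of any member. Usp18 removes ISG15 from its targets and also restrains the interferon receptor. It stood at 3.48, 4.2 and 4.14 in saline and 6.56 and 5.55 in LPS 1 and 2, a difference of 2.11 (SE 0.33; limma adjusted p = 0.00132). Herc6 encodes the main ligase for ISG15 in the mouse, and its values of 2.35 to 2.94 in saline and 3.21 to 4.21 in LPS did not overlap. Herc6 rose by 1.01 (SE 0.25; limma adjusted p = 0.00932). With equal sums its difference was 0.31 and did not pass. Of its 50-base stretches 23.8% are also found in the transcript of an overlapping gene, Gm45193, so its reads may be split.

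The 3 Ifit genes on chromosome 19, whose products bind foreign RNA, all rose at least 4-fold. Ifit1 (34640871 to 34650009, plus strand) had saline values of 3.32, 5.02 and 4.4 and LPS values of 8.08, 7.12 and 7.13. The gap between the groups, 2.09 from the highest saline to the lowest LPS library, was wider than the spread within either. Its difference was 3.19 (SE 0.41; limma adjusted p = 0.000406), or 9.13-fold. Ifit3 stood at 5.08, 6.30 and 5.76 in saline and 8.53, 7.82 and 8.11 in LPS (difference 2.44, SE 0.30). Ifit2 stood at 3.54, 4.46 and 3.89 in saline and 6.66, 5.80 and 6.05 in LPS (difference 2.20, SE 0.27). Both had a limma adjusted p of 0.000364, with groups well apart. The value of Ifit3 is uncertain, because 51.2% of the 50-base stretches of its transcript also occur in that of its neighbour Ifit3b.

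All 6 members of the oligoadenylate synthetase family rose, under each scaling. Most of these enzymes sense double-stranded RNA and make short oligoadenylates as a second messenger, an activity that the mouse protein of Oasl1 lacks. Oas3 had the largest difference, from 0.97, 1.93 and 1.59 in saline to 4.79, 3.08 and 3.56 in LPS (2.31, SE 0.40; limma adjusted p = 0.00161). Oasl1 went from 1.19, 2.49 and 2.05 to 5.02, 3.14 and 3.99 (2.14, SE 0.45; limma adjusted p = 0.00421). LPS 1 was the highest library for all 6 genes and LPS 2 the lowest, and Oas2 was the clearest case, with 4.32, 2.51 and 2.71 in LPS and 1.22 to 1.66 in saline. The Oas2 difference of 1.67 (SE 0.40; limma adjusted p = 0.00799) was 1.10 without LPS 1. Oasl2 rose by 2.13 (SE 0.38), Oas1a by 2.0 (SE 0.39) and Oas1g by 1.72 (SE 0.25), with limma adjusted p-values of 0.00185, 0.00293 and 0.000702. Oas1a and Oas1g lie side by side on chromosome 5 and share sequence. Of the 50-base stretches of Oas1a 57.6% also occur in Oas1g, so the split of reads between them is uncertain.

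**Figure D2:**
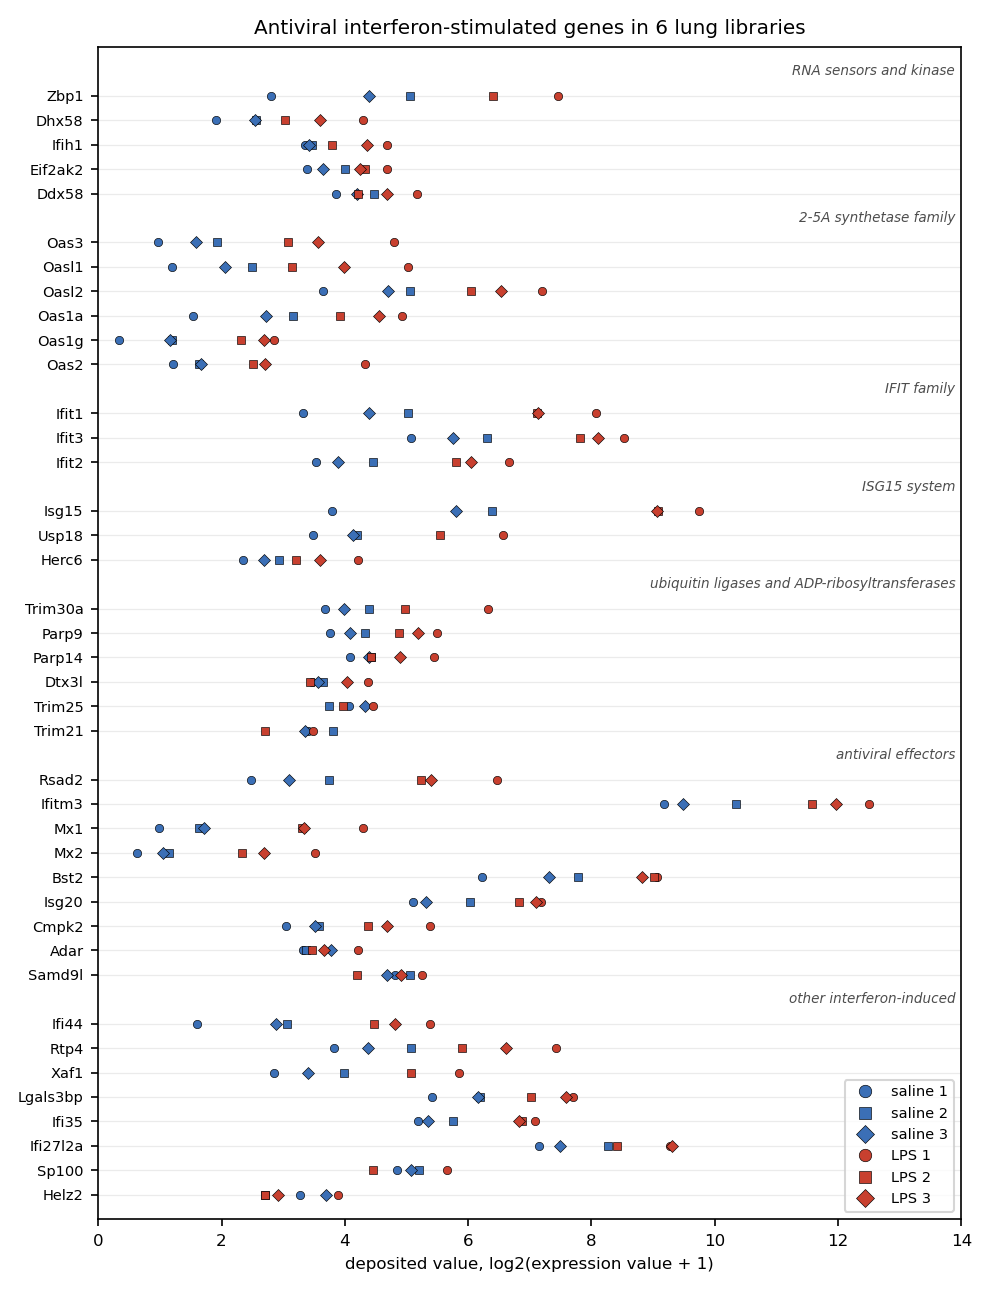
Deposited value (log2 of an expression value plus 1, x axis) of each of the 40 members (rows, grouped by role) in saline libraries (blue) and LPS libraries (red), with 1 symbol per replicate. LPS 1 (red circle) is the highest LPS library and saline 1 (blue circle) the lowest saline library in most rows, and the groups overlap in rows such as Ddx58, Trim21 and Helz2.

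Of the 5 RNA sensor and kinase genes 4 rose, with the largest difference in Zbp1. That gene encodes a sensor of Z-form nucleic acid that can start necroptosis, and it stood at 2.80, 5.05 and 4.39 in saline and 7.46 and 6.41 in LPS 1 and 2. Its difference of 2.85 (SE 0.59; limma adjusted p = 0.00471) was the third largest of the members. Dhx58, which encodes the regulatory helicase LGP2, rose by 1.30 (SE 0.30; limma adjusted p = 0.00674), and Ifih1, which encodes the sensor MDA5, by 0.87 (SE 0.21; limma adjusted p = 0.00813). Ifih1 was tight in saline, at 3.36, 3.46 and 3.42, and stood at 4.68, 3.80 and 4.36 in LPS. Eif2ak2, which encodes the translation-blocking kinase PKR, rose by 0.74 (SE 0.19; limma adjusted p = 0.0114). Ddx58, which encodes RIG-I, did not pass, with 3.86, 4.47 and 4.19 in saline and 5.17, 4.21 and 4.69 in LPS (0.52, SE 0.25; limma adjusted p = 0.111). Only LPS 1 and LPS 3 exceeded all saline values of Ddx58, and without LPS 2 the gene passed (0.75). Of these 5 genes only Zbp1 remained called with equal sums, where Dhx58 was 0.62, Ifih1 0.12, Eif2ak2 -0.017 and Ddx58 -0.25. Without saline 2 and LPS 3 together, the Ifih1 call also ended (0.85; limma adjusted p = 0.056).

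Effectors that act on virus particles or genomes mostly rose. Rsad2 encodes viperin, an enzyme that makes a chain-terminating nucleotide, and went from 2.48, 3.74 and 3.10 in saline to 6.47, 5.23 and 5.39 in LPS. It rose by 2.59 (SE 0.37; limma adjusted p = 0.000691), or 6.00-fold. Its neighbour Cmpk2 on chromosome 12 encodes a nucleotide kinase that supplies the same pathway, points away from Rsad2 with start sites 12752 bases apart, and rose by 1.43 (SE 0.26; limma adjusted p = 0.00194). Within each library Rsad2 minus Cmpk2 was -0.56, 0.17 and -0.41 in saline and 1.09, 0.85 and 0.70 in LPS. That change of 1.15 had an exact two-sided permutation p of 0.10 with n = 3 per group, the smallest this design allows. After Benjamini-Hochberg adjustment over the 4 gene pairs compared, which were chosen after the values were seen, it was 0.2.

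The dynamin-like GTPase genes Mx1 and Mx2 had low saline values and both rose. Mx1 went from 0.98, 1.64 and 1.71 to 4.30, 3.31 and 3.33 (2.20, SE 0.29; limma adjusted p = 0.000462), and Mx2 from 0.63, 1.15 and 1.05 to 3.51, 2.33 and 2.69 (1.90, SE 0.28; limma adjusted p = 0.000795). No LPS value of either came near a saline value. Both genes are known to be defective in C57BL/6 and most other inbred strains, so RNA there does not mean a working protein. Mx1 minus Mx2 differed between the groups by 0.30 (exact two-sided permutation p = 0.20, n = 3 per group, where 0.10 is the smallest possible; adjusted over the 4 pairs 0.267).

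Ifitm3, Bst2 and Isg20 had high values in saline and rose further. Ifitm3 encodes a membrane protein that blocks fusion of entering viruses. It stood at 9.18, 10.34 and 9.48 in saline and 12.51, 11.58 and 11.97 in LPS (2.35, SE 0.36; limma adjusted p = 0.000923), a difference that was 1.22 with quantile normalization. Bst2, or tetherin, holds budding virus at the cell surface, and stood at 6.23, 7.79 and 7.31 in saline and 9.07, 9.01 and 8.82 in LPS (1.85, SE 0.34; limma adjusted p = 0.00233; 1.16 with quantile normalization). Its LPS values spanned 0.24, the narrowest LPS range of the members, against 1.56 in saline. The exonuclease gene Isg20 rose by 1.55 (SE 0.24; limma adjusted p = 0.001). Adar, which encodes an RNA-editing enzyme, and Samd9l, a growth-restraining gene, did not pass, with differences of 0.30 (SE 0.21; limma adjusted p = 0.274) and -0.06 (SE 0.25; limma adjusted p = 0.867).

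Ubiquitin ligases and ADP-ribosyltransferases were the role with the fewest calls, 2 of 6. Trim30a, which in the mouse restrains Toll-like receptor signalling, stood at 3.68, 4.39 and 3.99 in saline and 6.32 and 4.97 in LPS 1 and 2. It rose by 1.63 (SE 0.37; limma adjusted p = 0.00752), or by 0.95 without LPS 1. Parp9 rose by 1.13 (SE 0.20; limma adjusted p = 0.00198), from 3.76, 4.32 and 4.09 to 5.50, 4.88 and 5.19. Both calls ended with equal sums, where Trim30a was 0.84 and Parp9 0.36. Dtx3l encodes the ligase that works as a pair with PARP9. The pair's genes point away from each other on chromosome 16, overlapping by their first bases, with start sites 681 bases apart. Dtx3l stood at 3.46, 3.65 and 3.56 in saline and 4.37, 3.43 and 4.04 in LPS, with LPS 2 below every saline library (0.39, SE 0.22; limma adjusted p = 0.166). Without LPS 2 it passed (0.65; limma adjusted p = 0.0217), and without LPS 1 it was 0.18. Parp9 minus Dtx3l was 0.30, 0.67 and 0.54 in saline and 1.12, 1.45 and 1.15 in LPS. The groups were apart in that value, with an exact two-sided permutation p of 0.10 (n = 3 per group), the smallest possible, and 0.2 adjusted over the 4 pairs. This pair too was chosen with its values in view. The remaining pair, Oasl1 minus Oasl2, differed between the groups by 0.01 (exact two-sided permutation p = 0.90, adjusted 0.9).

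Parp14, Trim25 and Trim21 did not pass. For Parp14, another ADP-ribosyltransferase gene, the LPS libraries (4.43 to 5.45) cleared the saline libraries (4.09 to 4.42) by 0.01 (0.62, SE 0.24; limma adjusted p = 0.0553), and it passed without LPS 2 (0.87). Trim25 ubiquitinates RIG-I, and stood at 4.06, 3.75 and 4.32 in saline and 4.46 and 3.97 in LPS (0.17, SE 0.23; limma adjusted p = 0.548). Trim21 is an intracellular receptor for antibody-coated virus, and stood at 3.40, 3.81 and 3.36 in saline and 3.48 and 2.70 in LPS (-0.43, SE 0.25; limma adjusted p = 0.185). Its direction was down under each scaling, and it was called lower with equal sums (-1.16) and without LPS 1 (-0.82).

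Of the 8 remaining members 6 rose. Ifi44 rose by 2.37 (SE 0.37; limma adjusted p = 0.001), from 1.60, 3.07 and 2.88 to 5.38, 4.48 and 4.82. Rtp4, a chaperone-like gene induced by interferon, rose by 2.22 (SE 0.40; limma adjusted p = 0.00192), and 13.6% of its 50-base stretches also occur in an overlapping gene, Gm45338. Xaf1, which promotes cell death, rose by 2.05 (SE 0.34; limma adjusted p = 0.00178) on 2 LPS values. Lgals3bp, a secreted galectin-binding glycoprotein, rose by 1.52 (SE 0.26; limma adjusted p = 0.00154; 0.98 with quantile normalization). Ifi35 had the smallest error of any member (1.49, SE 0.18; limma adjusted p = 0.00036), with 5.19 to 5.76 in saline and 6.83 to 7.08 in LPS. Ifi27l2a rose by 1.35 (SE 0.33; limma adjusted p = 0.00849), but its lowest LPS value stood only 0.14 above its highest saline value. That call ended with quantile normalization (0.63) and with equal sums (0.55). The nuclear body gene Sp100 (0.02, SE 0.32; limma adjusted p = 0.964) and the helicase-like gene Helz2 (-0.05, SE 0.33; limma adjusted p = 0.899) did not pass. Sp100 stood at 4.84 to 5.20 in saline and at 5.66 and 4.46 in LPS 1 and 2, on either side of all saline values.

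Most interferon genes were listed at 0 or had values near it. Of 13 ligand genes, 9 were listed at 0 in all 6 libraries: Ifna1, Ifna2, Ifna4, Ifna5, Ifna6, Ifnab, Ifnl2, Ifnl3 and Ifne. Ifnb1, the interferon gene downstream of TRIF, stood at 0.00, 0.00 and 0.13 in saline and 0.26, 0.14 and 0.00 in LPS, and Ifnk and Ifnz did not exceed 0.13. These were under the filter and were not tested. Ifng, the interferon of T and NK cells, was the only ligand tested, at 0.20, 1.08 and 0.53 in saline and 1.07, 0.88 and 1.16 in LPS (0.43, SE 0.22; limma adjusted p = 0.13), with overlapping groups. It was called higher with quantile normalization (0.65; limma adjusted p = 0.036).

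Receptors and signal transducers changed in part, and their directions depended on the scaling. Of 6 receptor genes 3 rose and with equal sums 3 others (Ifnar1, Ifngr1 and Ifnlr1) fell. The type I receptor gene Ifnar2 rose by 1.02 (SE 0.19; limma adjusted p = 0.00239), whereas its partner Ifnar1 had 3.62 to 3.77 in saline and 3.75 to 3.99 in LPS (0.19, SE 0.14). Il10rb, shared by the receptors of type III interferons and interleukin-10, rose by 1.17 (SE 0.18; limma adjusted p = 0.000967), and Ifngr2 by 0.92 (SE 0.16; limma adjusted p = 0.00199). All 3 calls ended with equal sums, at 0.22, 0.38 and 0.13. Of 18 transducer genes 10 rose and Mavs fell (-0.64, SE 0.15; limma adjusted p = 0.00683), but with equal sums 3 rose and 5 fell.

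The largest transducer changes were in Irf7 and Ikbke, which remained called under each scaling. Irf7, the transcription factor that amplifies interferon production, went from 3.24, 4.97 and 4.64 to 8.43, 7.11 and 7.75 (3.48, SE 0.45; limma adjusted p = 0.000413). Ikbke, a kinase related to TBK1, went from 1.73, 3.04 and 2.49 to 5.82, 5.73 and 5.12 (3.14, SE 0.31; limma adjusted p = 0.000155). Among the parts of the complex that binds the response element, Stat2 rose by 0.89 (SE 0.26; limma adjusted p = 0.0223) and Irf9 by 0.96 (SE 0.25; limma adjusted p = 0.0121). The Stat2 and Irf9 calls ended with equal sums, at 0.14 and 0.18, and that of Irf9 with quantile normalization too (0.68). The remaining transducers that rose were Irf5 (1.70), Tmem173 (1.52), which encodes STING, Tbk1 (0.89), Jak2 (0.79), Mb21d1 (0.71), which encodes cGAS, and Irf3 (0.52), and of these only Irf5 was called with equal sums, and the Irf3 call ended with quantile normalization (0.31). Of 10 genes listed as negative regulators of the pathway 6 rose, among them Isg15, which is already counted as a member. After Isg15 the largest differences were in Socs3 (3.32, SE 0.46, limma adjusted p = 0.000833) and the phosphatase gene Ptpn2 (1.94, SE 0.21, limma adjusted p = 0.000221). Socs1 rose by 1.32, Nmi by 1.02 and Ptpn6 by 0.68 (0.26, not called, with quantile normalization). With equal sums Isg15, Socs3 and Ptpn2 rose, and Pias1, Irf2 and Ptprc fell. Stat2, Tmem173, Tbk1, Socs1 and Socs3 have no LPS 3 value.

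Members moved together between libraries of the same group. Among the 33 members with 6 values, LPS 1 was the highest LPS library for 32 and LPS 2 the lowest for 29, where 34.1% and 32.9% of 10295 tested genes had that library highest or lowest. LPS 1 exceeded LPS 2 in all 33, by a median of 0.95 (0.06 to 1.88), against a median of -0.01 over all tested genes. In saline, library 1 was the lowest for 31 members and library 2 the highest for 29, and saline 2 exceeded saline 1 by a median of 0.78. The median range within a group was 0.87 in saline and 0.95 in LPS for the members, and 0.40 and 0.30 for all tested genes. The members' values in 1 library are therefore not separate measurements of a condition.

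**Figure D3:**
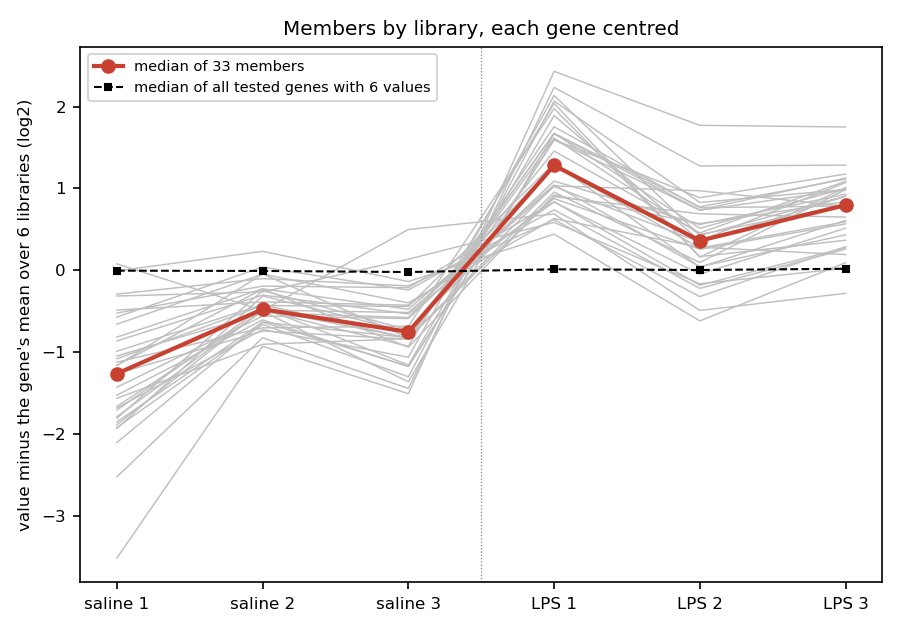
Value of each of the 33 members with 6 values (grey lines, log2) after subtraction of the gene's mean over the 6 libraries, by library. Lines only join values of 1 gene; the members' median (red) runs from -1.26 in saline 1 to 1.28 in LPS 1 and is 0.36 in LPS 2, while the median of all tested genes (dashed) stays between -0.02 and 0.02.

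The sums of neutrophil markers, and of monocyte and macrophage markers other than Lyz2, were ordered over the libraries like the members. Other marker lists were not all so. Of 14 neutrophil markers tested 12 rose, and the sum of the 12 tested with 6 values, before the log, was 715, 2090 and 736 in saline and 25707, 9973 and 18335 in LPS. S100a8 and S100a9 made 82.4% to 93.9% of that sum. The rest was 126, 285 and 106 in saline and 2000, 624 and 1111 in LPS. The same libraries were highest in each group and LPS 2 lowest, but saline 3 was below saline 1. Of 14 monocyte and macrophage markers 13 rose and Lyz2 fell (-1.0), with 7 rising under equal sums, and their sum was 3863 to 5614 in saline and 3056 to 3936 in LPS. Lyz2 made 45.6% to 90.1% of it. The other 13 summed to 411, 669 and 432 in saline and 2140, 1062 and 1531 in LPS. Of 10 lymphocyte markers 5 fell (8 with equal sums), with sums of 156 to 238 in saline and 61.4 to 75.7 in LPS. Siglech, a defining marker of plasmacytoid dendritic cells, which make much type I interferon, was 0.96 to 1.09 in saline and 1.11 to 1.38 in LPS (0.18; limma adjusted p = 0.315), and it was called higher with quantile normalization (0.46). Of 5 markers of that cell tested Tcf4, which has no LPS 3 value, rose, and Cox6a2 and Ly6d fell. The sum of 7 markers was 121 to 156 in saline and 35.7 to 49.5 in LPS. Ly6d and Cox6a2 made 85.1% to 98.1% of it, so that sum mostly repeats these genes. The other 5 summed to 2.99 to 3.79 in saline and 2.82 to 5.55 in LPS. All 10 cardiac muscle markers fell, and the 7 with 6 values had sums of 258 to 2206 in saline, highest in saline 1, and 54.4 to 176 in LPS. Cox6a2 was ordered over the 6 libraries like these cardiac sums, from saline 1 as the highest to LPS 1 as the lowest. Ly6d fell, as did 5 of the 10 lymphocyte markers. Which cells gave the Cox6a2 and Ly6d values was not tested. No marker summed was at 0 in any library, and the part of the listed cell types in the members' differences was not tested. Lung markers were plain in every library, with the alveolar surfactant gene Sftpc at 13.46 or more. Of 10 epithelial and endothelial markers Foxj1 rose and Sftpb fell, but 8 fell and 0 rose with equal sums, and their sum was 81861 to 119397 in saline and 164990 to 180722 in LPS. Scgb1a1, a club cell gene, made 74.4% to 91.4% of it, and the other 9 summed to 20144 to 21314 in saline and 15075 to 16577 in LPS.

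Transcript length also moved with the differences. Across the 40 members the Spearman correlation of the difference with the length of the longest protein-coding transcript was -0.52, and across 12306 tested genes with a length it was -0.40. These describe genes that share the same 6 libraries. Of the 12 members under 2000 bases all rose, of 21 with 2000 to below 5000 bases 18 rose, and of 7 with 5000 bases or more only Ifih1 rose. The others of that last class were Dtx3l, Parp14, Trim25, Adar, Samd9l and Helz2, 6 of the 9 members that did not pass. Of all tested genes, 45.6% were called higher and 11.3% lower under 2000 bases, and 8.40% higher and 46.0% lower at 5000 bases or more. The median difference of the members was 2.06, 1.67 and 0.30 in the 3 classes, and that of all tested genes 0.42, 0.00 and -0.41. The part of length in the members' differences was not tested. Level in saline did not order the members in this way (Spearman -0.01 across the 40).

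**Figure D4:**
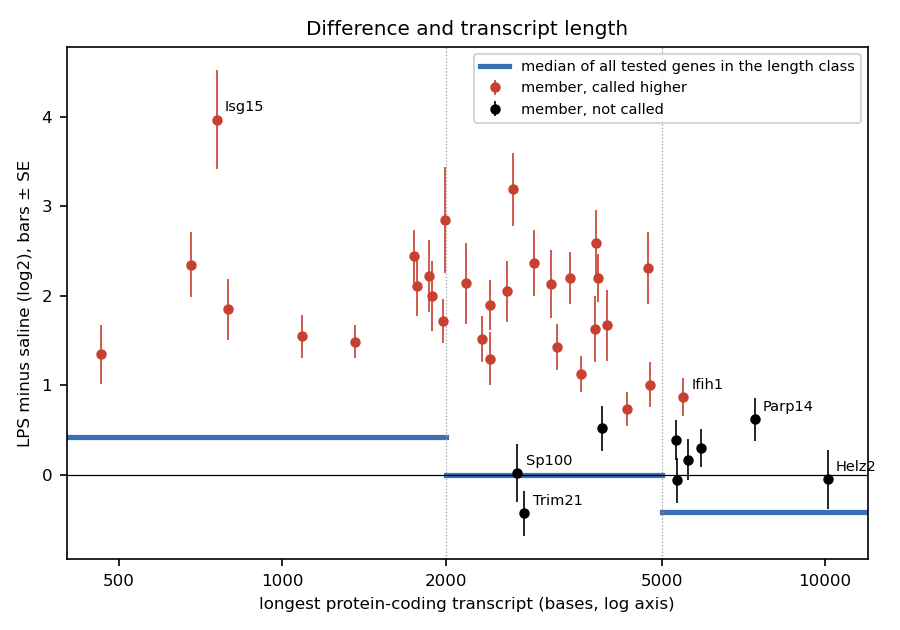
LPS minus saline difference (log2, bars of 1 SE) of the 40 members against the length of the longest protein-coding transcript (bases, log axis), with the median of all tested genes in each of 3 length classes (blue bars). Members lie above the blue bar of their class except Trim21, and 6 of the 9 members not called (black) have 5000 bases or more.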

How the data were processed

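Whole-lung RNA was sequenced in 6 libraries, 3 per group. Trizol was used for extraction and a strand-marking kit for library construction, per the labels' protocols. The aligner TopHat and the mm10 build are named, per the submitters' processing notes. Neither labels nor headers name the counting tool, annotation or scaling, which are therefore not given here. Each deposited table holds log2 values of the authors' making, taken here from their range to be log2(expression value + 1). The range alone does not settle the added 1 or the unit. The filter, the marker sums, equal sums and the pseudocount alternative rest on that reading. Depth is unknown, so no counting interval is given. Exact zeros number 3869 in each saline table and from 5117 to 6223 in those of LPS, where LPS 3 lacks 4484 genes. Why all saline tables share the same number was not tested. Whether the gap between the groups comes from processing or treatment cannot be told apart. If processing differed by group, it could not be told apart from treatment in any difference above.

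Genes with a value of at least 1 before the log in at least 3 libraries were kept (13116, of which 2821 have 2 LPS values). LPS was compared with saline in limma 3.58.1 (R 4.3.3) with a variance trend, fitted to the deposited values without a further log, with Benjamini-Hochberg adjustment over all tested genes and a threshold of 0.05. On simulated data for this comparison (5 runs of 13116 genes, 200 changed), 56.6% of genes changed 2-fold and 91.6% of those changed 4-fold were recovered, and 4.08% of calls were false. All 40 members are named, with listed pathway genes that passed and all ligands; some listed genes are not reported here. The 40 members were given by name and were not chosen here on their values. The other lists and the tests were chosen with earlier results of these data known. The 4 gene pairs and the length classes were chosen after the values were seen. Pairs were tested in scipy 1.17.1 by exact permutation over libraries. Positions and transcripts come from GENCODE M21 and promoters from RefSeq, both on GRCm38. Shared sequence was measured in stretches of 50 bases. Alternatives covered scaling, filter, pseudocount, variance model, replicate block, threshold and left-out libraries.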

Additional observations from a re-analysis of the deposited data

How the results depend on the processing

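Of the 31 members called higher, 18 were called higher under all 16 alternatives. Another 5 (Oas1g, Mx2, Zbp1, Usp18 and Xaf1) were called under each that gave them a value, which 1 filter did not. Leaving equal sums aside, 26 were called under each alternative that gave them a value. With equal sums 24 members were called higher and 2 lower, and of all tested genes 798 were called higher and 8343 lower. That scaling also turned Ddx58 (-0.25), Eif2ak2 (-0.017), Dtx3l (-0.35), Parp14 (-0.15), Trim25 (-0.60), Adar (-0.44) and Sp100 (-0.77) below 0, and Sp100 turned with quantile normalization too (-0.28). The cause was not tested. Raising the filter to a mean of 5 left 1752 genes called lower. The stricter threshold of 0.01 left 2033 higher and 2004 lower. Without a filter, where 19314 genes share the adjustment, the calls of Oas2 and Trim30a ended, and 29 members passed. The Eif2ak2 call ended at the stricter threshold.

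When single libraries were dropped in turn, 31 to 34 members were called higher, the most without LPS 2, and 0 to 1 called lower, the 1 being Trim21 without LPS 1. For all genes the counts were 2461 to 3660 higher and 2440 to 3436 lower. The direction of 4 uncalled members turned: Trim25 ranged from -0.077 to 0.42, Samd9l from -0.29 to 0.24, Sp100 from -0.58 to 0.62 and Helz2 from -0.41 to 0.18. Where LPS 1 or 2 is left out, members with no LPS 3 value rest on 1 LPS library, assumed to vary like the others. Leaving out saline 2 and LPS 3 together gave 30 members called higher.

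With the replicate number as a block, 31 members and 2793 of all genes were called higher and 2624 of all genes lower. Deviations of same-numbered libraries correlated at -0.234, -0.078 and -0.252 across 10295 genes, so the numbers do not pair the libraries, and no library correlated best with its own number.

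Unknown depth limits the low genes. A value of 0.00 to 0.26 for an interferon gene cannot be set against a detection limit.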

Other observations

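Relatives of the members that are not among the 40 were mixed. Of 27 such genes tested 12 rose and 3 fell, and with equal sums 7 rose and 9 fell. Ifitm6, a relative of Ifitm3 with known expression in myeloid cells, stood at 3.93, 4.16 and 3.64 in saline and 8.05, 5.63 and 7.21 in LPS, a difference of 3.05 (SE 0.49; limma adjusted p = 0.00118). Ifitm1 rose by 2.21, Ifit3b by 2.01, Trim30b by 2.01 and Trim30d by 1.69, each of them also with equal sums. Trim30b and Trim30d have no LPS 3 value. Ube2l6, the conjugating enzyme for ISG15, stood at 5.48, 6.28 and 5.57 in saline and 7.49 and 7.28 in LPS 1 and 2 (1.61, SE 0.26; limma adjusted p = 0.00162). Uba7, the activating enzyme of the same reaction, had 3.64, 4.01 and 4.19 in saline and 4.61 and 4.11 in LPS (0.41, SE 0.22; limma adjusted p = 0.157). The genes that fell were the editing enzyme gene Adarb1 (-1.30), Helz (-1.09) and Herc3 (-0.57), and the last call ended with quantile normalization (-0.27). Ifit1bl1, a relative of Ifit1, stood at 2.15 to 2.39 in saline and 1.75 to 2.75 in LPS (0.04, SE 0.23; limma adjusted p = 0.901).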
